A study of Mus musculus with 12 samples.

Results

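The 10 genes described here form the core endoplasmic reticulum (ER) branch of the unfolded protein response. They are the chaperones and co-chaperones Hspa5, Hsp90b1, Dnajb9, Sdf2l1 and Pdia4, the ER-resident secreted proteins Manf and Creld2, the ER-associated degradation factors Herpud1 and Edem1, and the transcription factor Xbp1. They were chosen by symbol, with earlier results of these data known. Each of the 10 matched 1 row of the 22471 features in every library. Primary hepatocytes of male C57BL/6J mice were cultured in 4 groups of 3 libraries, 12 libraries in all, and the labels give the tissue as liver. Con were control cells, ConOA received oleic acid (OA, a monounsaturated fatty acid used to model steatosis), BBR received benzbromarone (a drug that lowers uric acid), and BBROA received both. In the study's methods OA was bound to bovine serum albumin, and whether cells without OA received albumin alone is not given in the sources used here. Whether replicates came from separate mice is likewise not given, so p-values measure the spread between these libraries, which may be technical.

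Proteins bound for secretion are folded in the ER, and hepatocytes secrete most of the plasma proteins. When unfolded protein accumulates, the sensors IRE1, PERK and ATF6 raise the output of chaperone and degradation genes and lower the input of new protein. IRE1 splices the Xbp1 message, ATF6 is cleaved to an active factor, and PERK acts through translation and the factor ATF4. Gene-level counts hold no information on Xbp1 splicing, on ATF6 cleavage or on protein.

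Among these genes the largest movements went with OA and went in opposite directions. Herpud1 rose 1.76-fold with OA alone and 2.0-fold with OA on top of BBR, while in the same comparisons Pdia4 fell by 25.5% and fell by 29.6%. Hspa5, the most abundant of the 10, rose by 18.1% with OA in BBR-treated cells, and gave a log2 fold change of 0.055 without the drug (adjusted p = 0.426). With BBR alone Manf decreased by 14.9%, Creld2 decreased by 16.9% and Xbp1 decreased by 11.5%, and Dnajb9 rose 1.2-fold. In that comparison 28.4% of all genes tested had an adjusted p under 0.05. The Manf and Creld2 differences did not pass in every fit that left out 1 library.

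Promoter stretches are shown for the 4 genes that hold an ER stress element, and for Pdia4, which moved opposite to Herpud1. The windows run from 250 bases before to 50 bases after the start site in RefSeq (GRCm38.p6), and 9 of the 10 genes matched an entry there, Manf having none. Both strands were searched for 3 motifs: the ER stress element (ERSE: CCAAT, then 9 bases of any kind, and at the end the letters CCACG), ERSE-II (ATTGG, then 1 base, and then CCACG) and the unfolded protein response element core TGACGTGG. An ERSE stood in 39 of 32851 promoters (0.119%), among them Hspa5, Hsp90b1 with 2 matches, and Creld2. An ERSE-II stood in 12 (0.0365%), among them Herpud1. The TGACGTGG core stood in 222 (0.676%) and in none of the 9. The CCACG part alone, which lies inside both elements and was counted after the matches were seen, stood in 32.8% of all promoters and in 8 of the 9. Stretches around the matches follow, with capitals for the fixed letters of each motif as read on the gene's strand. The Hspa5 match lies 65 to 47 bases before the RefSeq start site and inside an exon of the GENCODE annotation, so only its immediate flanks are given.
Hspa5 chr2:34772020-34772048, plus strand: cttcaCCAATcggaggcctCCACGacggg
Hsp90b1 chr10:86705510-86705694, minus strand: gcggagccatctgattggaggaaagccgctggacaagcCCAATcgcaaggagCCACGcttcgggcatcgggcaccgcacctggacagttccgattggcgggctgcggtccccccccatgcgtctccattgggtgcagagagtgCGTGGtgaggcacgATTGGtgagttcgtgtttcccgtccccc
Creld2 chr15:88819480-88819578, plus strand: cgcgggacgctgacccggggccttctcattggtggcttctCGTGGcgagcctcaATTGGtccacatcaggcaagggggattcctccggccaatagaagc
Herpud1 chr8:94386337-94386427, plus strand: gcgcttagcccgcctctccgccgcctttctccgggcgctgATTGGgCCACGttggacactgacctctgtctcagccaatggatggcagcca
Pdia4 chr6:47813513-47813632, minus strand: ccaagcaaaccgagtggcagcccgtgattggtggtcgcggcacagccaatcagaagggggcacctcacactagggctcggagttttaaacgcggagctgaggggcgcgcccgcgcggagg
The Herpud1 element lies 52 to 42 bases before the start site, and the Creld2 element 126 to 108 bases before it on the opposite strand. The 2 Hsp90b1 elements lie 212 to 194 and 107 to 89 bases before the start, on opposite strands. For Pdia4 the last 120 bases before its start are given, and its window holds none of the 3 motifs. The windows of Dnajb9, Sdf2l1, Edem1 and Xbp1 hold none either. The RefSeq start of Pdia4 lies upstream of its GENCODE start (47813430, minus strand), and the window ends before reaching the latter. A match describes letters only, and so does the lack of one. For the 3 genes with an ERSE, OA in untreated cells gave log2 fold changes of 0.055 for Hspa5, -0.19 for Hsp90b1 and -0.27 for Creld2. In BBR-treated cells OA gave 0.24, -0.033 and -0.088 in the same order. Herpud1, with the ERSE-II, gave 0.82 in untreated and 1.0 in BBR-treated cells. Among genes without the 3 motifs, Pdia4, Dnajb9, Sdf2l1, Edem1 and Xbp1 gave -0.43, 0.11, -0.25, 0.10 and 0.011 in untreated cells. In BBR-treated cells they gave -0.51, -0.19, 0.14, 0.080 and 0.19 in the same order.

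Total counts ran from 15485508 to 23668379 per library, and 1 count was worth 0.0423 to 0.0646 CPM (counts scaled to library size). The lowest count of any of the 10 genes in any library was 156, for Sdf2l1. Replicates of a group differed by more than counting noise, with a chi-square over its degrees of freedom of 2.77 to 7.61, so none was treated as a repeat deposit. Differences were tested by edgeR's quasi-likelihood F test, and a gene was called at an adjusted p (Benjamini-Hochberg, over all genes tested) under 0.05. A value followed by an adjusted p is a log2 fold change, or for a difference between effects the difference of 2 log2 fold changes. Fits held no term for the replicate number (a replicate block), and calls gained with such a block are given at the end.

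The cells carried hepatocyte markers, of which 7 of 8 were found by symbol, and other liver cell types were present at far lower marker levels. The sum of 10 Kupffer cell markers was 101 to 119 CPM in Con, 109 to 123 in ConOA, 141 to 183 in BBR and 116 to 123 in BBROA. Of these, 3 were called higher and 6 lower with OA in untreated cells, and 0 higher and 1 lower with BBR alone. With OA in BBR-treated cells 3 were called higher and 3 lower. The sum of 5 cholangiocyte markers was 590 to 722 CPM in Con, 242 to 272 in ConOA, 391 to 421 in BBR and 199 to 240 in BBROA, the order of groups that Pdia4 also had. Of 4 that were tested, 1 was called higher and 1 lower with OA in untreated cells, 0 and 2 in BBR-treated cells, and 3 and 1 with BBR alone. With BBR alone the sum was thus lower than in Con while 3 of the 4 were called higher, so the sum did not follow most of them. The 7 hepatocyte markers summed to 34262 to 35821 in Con, 39567 to 41455 in ConOA, 34806 to 36914 in BBR and 40740 to 42819 in BBROA. Sums of 6 endothelial markers (47.5 to 62.9 over all libraries) and 7 stellate markers (23.0 to 29.0) were lower still, and no marker was at 0 in all 12 libraries. The part of these markers in the differences of the 10 genes was not tested, and in bulk RNA fewer cells of a type and less RNA per cell cannot be told apart.

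Per transcript length the 10 genes spanned 35.4-fold in Con. In deposited FPKM (fragments scaled to transcript length and library size), the Con means were 351 for Hspa5, 193 for Hsp90b1, 82.6 for Xbp1, 66.7 for Pdia4, 46.1 for Manf and 29.2 for Herpud1. Creld2 at 24.1, Edem1 at 19.0, Dnajb9 at 17.3 and Sdf2l1 at 9.92 followed. In Con no neighbours in this order overlapped between libraries. Herpud1 ranked below Manf in Con and BBR and above it in both OA groups, at 50.1 in ConOA, where its libraries overlapped those of Pdia4 (48.4), and at 59.9 in BBROA, above all Pdia4 libraries (44.0). Pdia4 and Manf overlapped in BBROA. Edem1, Creld2 and Dnajb9 overlapped as neighbours in ConOA, BBR and BBROA.

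**Figure D1:**
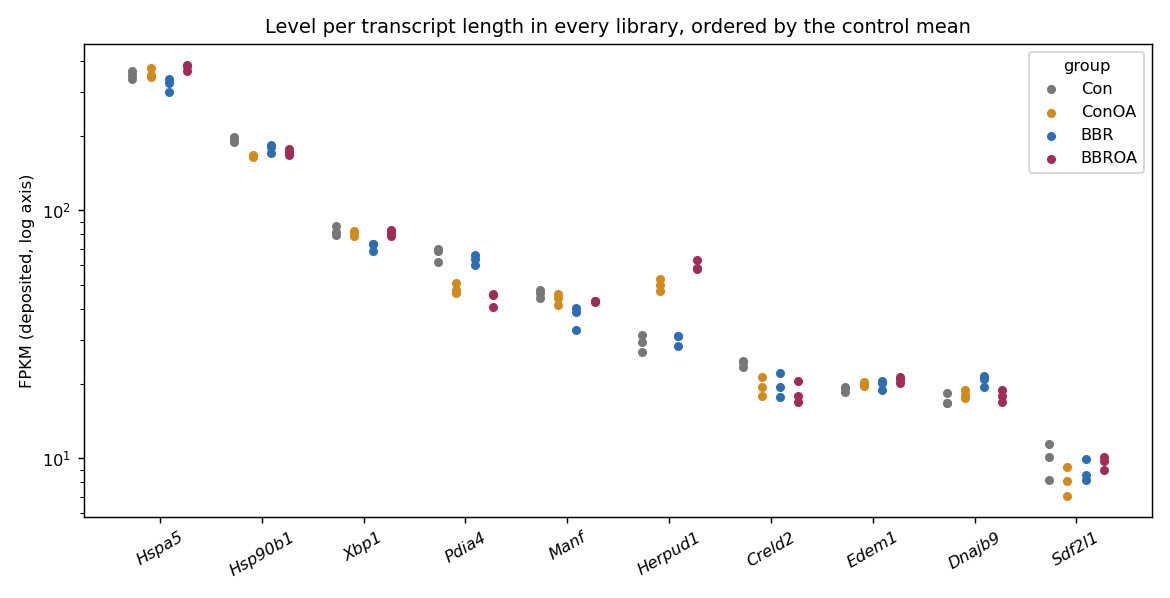
FPKM (log axis) of the 10 genes in each of the 12 libraries (points, coloured by group), ordered from left to right by the Con mean. Hspa5 lies highest, at a Con mean of 351, and Sdf2l1 lowest, at 9.92, while Herpud1 shows a gap between the OA groups and the groups without OA.

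Of the chaperones, Hspa5 (BiP; ENSMUSG00000026864, chromosome 2, 34771970 to 34777547, plus strand in GRCm38) is the ER member of the Hsp70 family and holds the 3 sensors inactive. Its libraries held 1029, 1004 and 967 CPM in Con, 1082, 1014 and 1004 in ConOA, 969.7, 935 and 866 in BBR and 1103, 1119.5 and 1054 in BBROA. The BBROA libraries all lay above the BBR libraries, and the groups of the other 3 comparisons overlapped. OA raised Hspa5 in BBR-treated cells (log2 fold change 0.24 with an SE of 0.048, adjusted p = 0.000572). Without the drug the OA difference was 0.055, adjusted p = 0.426, and the BBR difference without OA was -0.11, adjusted p = 0.15. The OA effect with and without BBR differed by 0.19, adjusted p = 0.0768. That difference passed the threshold without ConOA replicate 1 (0.23, adjusted p = 0.0448) or BBR replicate 1 (0.23, adjusted p = 0.0398).

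Hsp90b1 (GRP94; ENSMUSG00000020048, chromosome 10, 86690209 to 86705509, minus strand) is the ER form of Hsp90. It read 538, 552 and 529 CPM in Con and 473, 466 and 476 in ConOA, and these groups did not overlap. BBR held 512, 509 and 478 and BBROA 498, 492 and 477. Hsp90b1 fell with OA in untreated cells (log2 fold change -0.19 with an SE of 0.048, adjusted p = 0.00512). In BBR-treated cells the OA difference was -0.033, adjusted p = 0.581. All BBR libraries lay below all Con libraries, yet the difference did not pass the test (-0.10, adjusted p = 0.119).

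Pdia4 (ERp72; ENSMUSG00000025823, chromosome 6, 47796141 to 47813430, minus strand) is a protein disulfide isomerase, which forms and rearranges the disulfide bonds of folding proteins. The Con libraries held 163, 163 and 147 CPM and the BBR libraries 152, 158 and 144. The OA groups were lower, at 115, 123 and 113 in ConOA and 109, 112 and 98.7 in BBROA. Every library with OA lay below every library without it. OA lowered Pdia4 in untreated cells (log2 fold change -0.43 with an SE of 0.055, adjusted p = 1.33e-05) and in BBR-treated cells (log2 fold change -0.51 with an SE of 0.050, adjusted p = 2.32e-07). The 2 OA effects differed by -0.073, adjusted p = 0.609. With OA present, BBROA libraries were all below ConOA libraries, a difference that did not pass (-0.14, adjusted p = 0.173).

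Dnajb9 (ERdj4; ENSMUSG00000014905, chromosome 12, 44205559 to 44210326, minus strand) is a J-domain co-chaperone of BiP and a known IRE1-XBP1 target. Its levels were 40.2, 40.6 and 45.1 CPM in Con, 43.3, 46.6 and 45.1 in ConOA, 50.8, 52.5 and 47.5 in BBR and 41.4, 44.5 and 46.5 in BBROA. The 3 BBR libraries lay above all others. BBR alone raised Dnajb9 (log2 fold change 0.26 with an SE of 0.061, adjusted p = 0.00231), and OA lowered it in BBR-treated cells (log2 fold change -0.19 with an SE of 0.059, adjusted p = 0.0169). With OA present the drug difference was -0.033, adjusted p = 0.825. The drug effect with OA was lower than without it: the difference was -0.29 (SE 0.087, with an adjusted p of 0.0322). The OA call was lost without BBR replicate 2 (-0.16, adjusted p = 0.0668) or BBROA replicate 1 (-0.14, adjusted p = 0.0925). The difference between drug effects was lost in turn without Con replicate 1 (-0.26, adjusted p = 0.0846), Con replicate 2 (-0.26, adjusted p = 0.0807), ConOA replicate 2 (-0.28, adjusted p = 0.066), BBR replicate 1 (-0.28, adjusted p = 0.056), BBR replicate 2 (-0.26, adjusted p = 0.0917) or BBROA replicate 1 (-0.26, adjusted p = 0.07).

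Sdf2l1 (ENSMUSG00000022769, chromosome 16, 17130138 to 17132383, minus strand) works with BiP and its co-chaperones and was the least abundant of the 10. Its levels were 10.9, 12.5 and 9.05 CPM in Con, 10.2, 8.98 and 7.97 in ConOA, 9.43, 10.9 and 9.04 in BBR and 9.92, 11.4 and 10.9 in BBROA. The groups overlapped in all 4 comparisons, and no call was made without a replicate block. With the block Sdf2l1 was called lower in ConOA against Con. The OA difference without BBR was -0.25, adjusted p = 0.126, and it passed without Con replicate 3 (-0.37, adjusted p = 0.0321), as did the difference between drug effects (0.52, adjusted p = 0.0489, against 0.40, adjusted p = 0.143 with all libraries). Its standard errors, 0.107 to 0.128 in those 4 comparisons, were the widest of the 10 genes.

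**Figure D2:**
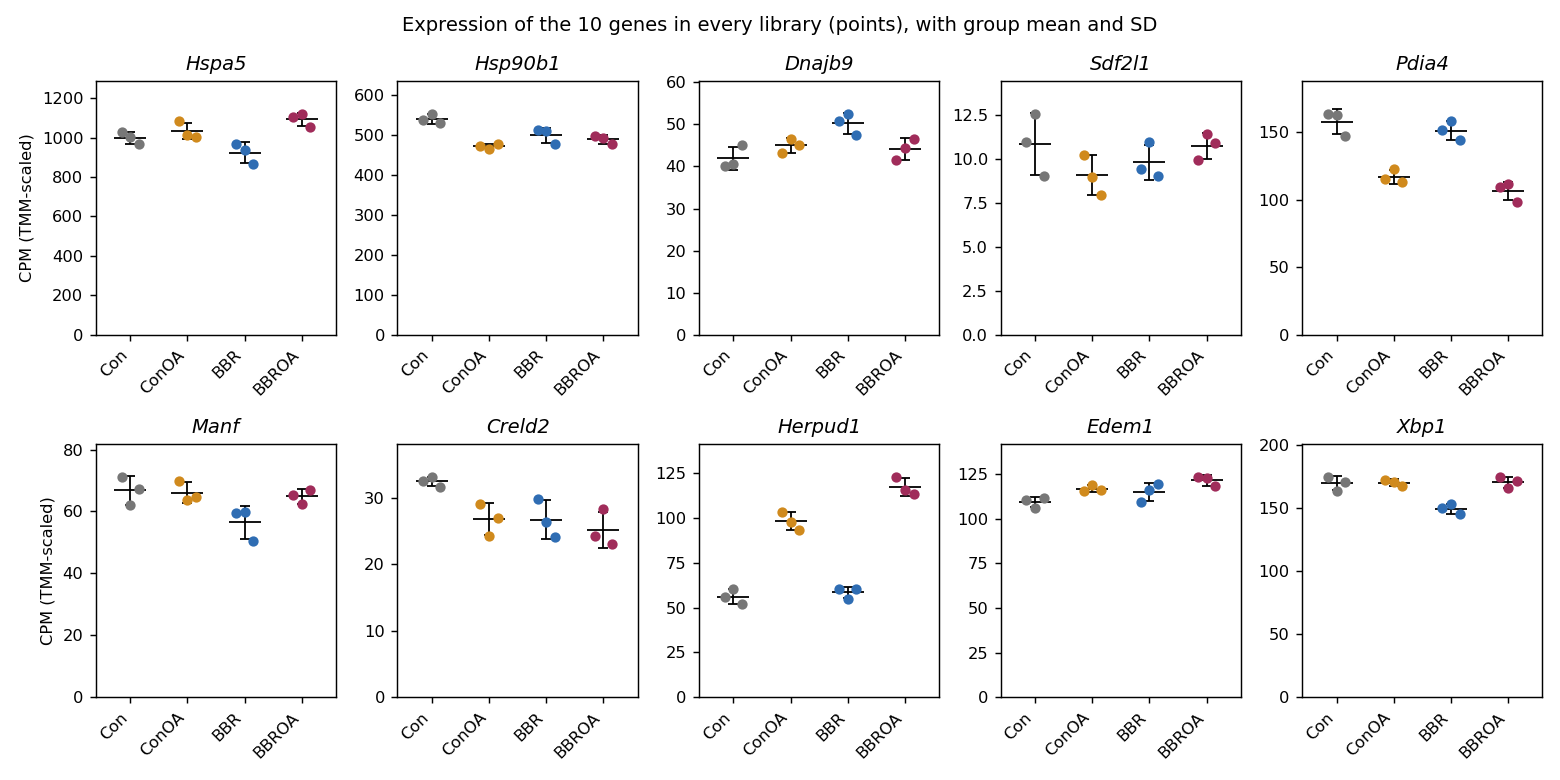
CPM (TMM-scaled, linear axis from 0) of each of the 10 genes in the 12 libraries, one panel a gene, with points for libraries, a bar for the group mean and whiskers for the SD (n = 3). Herpud1 is high and Pdia4 low in both OA groups, and Manf and Xbp1 are low in BBR alone.

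Of the secreted ER proteins, Manf (ENSMUSG00000032575, chromosome 9, 106838312 to 106891979, minus strand) is released from the ER under stress. The libraries held 71.2, 62.0 and 67.2 CPM in Con, 69.9, 63.6 and 64.7 in ConOA, 59.6, 59.7 and 50.4 in BBR and 65.4, 62.3 and 67.0 in BBROA. The 3 BBR libraries lay below all others. BBR alone lowered Manf (log2 fold change -0.23 with an SE of 0.068, adjusted p = 0.0152), and OA raised it in BBR-treated cells (log2 fold change 0.20 with an SE of 0.062, adjusted p = 0.0185). In untreated cells the OA difference was -0.0095, adjusted p = 0.914. The BBR call was lost without Con replicate 1 (-0.19, adjusted p = 0.0733), Con replicate 3 (-0.23, adjusted p = 0.0618) or BBR replicate 3 (-0.15, adjusted p = 0.0888). The OA call was lost without BBR replicate 3 (0.12, adjusted p = 0.113) or BBROA replicate 3 (0.18, adjusted p = 0.0738), and when libraries were scaled by their upper quartile (0.15, adjusted p = 0.0592).

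Creld2 (ENSMUSG00000023272, chromosome 15, 88819646 to 88826683, plus strand) is an ER stress-inducible protein with EGF-like domains. It read 32.5, 33.2 and 31.7 CPM in Con, above every library of the other groups. ConOA held 29.1, 24.3 and 27.0, BBR 29.8, 26.4 and 24.0 and BBROA 24.3, 28.3 and 23.1, and these 3 groups overlapped. Creld2 fell with OA alone (log2 fold change -0.27 with an SE of 0.073, adjusted p = 0.00727) and with BBR alone (log2 fold change -0.27 with an SE of 0.073, adjusted p = 0.00883). The BBR call was lost without BBR replicate 3 (-0.19, adjusted p = 0.0731). OA on top of BBR gave -0.088, adjusted p = 0.466, and BBR on top of OA gave -0.088, adjusted p = 0.641. The difference between the drug effects was 0.19, adjusted p = 0.345.

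Of the degradation factors, Herpud1 (Herp; ENSMUSG00000031770, chromosome 8, 94386438 to 94395377, plus strand) is an ER membrane protein that assembles the ubiquitin ligase complex of ER-associated degradation, and both ATF6 and ATF4 are known to act on its promoter. Con held 56.0, 60.4 and 51.9 CPM and BBR 60.3, 54.8 and 60.4. ConOA held 103, 97.9 and 93.2 and BBROA 123, 116 and 114, so that every OA library exceeded every library without OA, and every BBROA library exceeded every ConOA library. OA raised Herpud1 without the drug (log2 fold change 0.82 with an SE of 0.061, adjusted p = 4.15e-08) and with it (log2 fold change 1.0 with an SE of 0.050, adjusted p = 3.16e-11). BBR on top of OA raised it further (log2 fold change 0.26 with an SE of 0.053, adjusted p = 0.00946), whereas BBR without OA gave 0.072, adjusted p = 0.413. The drug effects with and without OA differed by 0.20, adjusted p = 0.128. The call for BBR on top of OA was lost without BBROA replicate 1 (0.22, adjusted p = 0.056).

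Edem1 (ENSMUSG00000030104, chromosome 6, 108828641 to 108859356, plus strand) directs misfolded glycoproteins to degradation. Its libraries held 111, 106 and 111 CPM in Con, 115, 119 and 116 in ConOA, 109, 116 and 119 in BBR and 123, 123 and 118 in BBROA. All ConOA libraries lay above all Con libraries, by a difference that did not pass (0.10, adjusted p = 0.0966). No comparison called Edem1 without a replicate block, and with the block it was called higher in ConOA against Con.

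Xbp1 (ENSMUSG00000020484, chromosome 11, 5520659 to 5525893, plus strand) encodes the transcription factor that IRE1 activates by splicing. Its libraries held 175, 164 and 171 CPM in Con, 172, 171 and 167 in ConOA, 149.9, 153 and 145 in BBR and 174, 166 and 171 in BBROA. BBR alone was below all the other groups, which overlapped. BBR lowered total Xbp1 without OA (log2 fold change -0.18 with an SE of 0.046, adjusted p = 0.00603), and OA raised it in BBR-treated cells (log2 fold change 0.19 with an SE of 0.041, adjusted p = 0.00125). The other OA and drug comparisons gave 0.011, adjusted p = 0.867 (below 0 under upper quartile scaling) and 9.3e-05, adjusted p = 0.999. The drug effect with OA exceeded that without it by 0.19 (SE 0.061, adjusted p = 0.0448). This was lost under RLE scaling, which takes the median ratio to a reference library (adjusted p = 0.0661), under 3 other settings and in 11 of 12 fits that left out 1 library, the exception being Con replicate 2 (0.21, adjusted p = 0.036).

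Read by comparison, OA in untreated cells (ConOA against Con) called 4 of the 10 genes, 1 higher (Herpud1) and 3 lower (Pdia4, Creld2 and Hsp90b1), where 43% of the 12418 genes tested were called, 21.3% higher and 21.7% lower. The 10 genes' share was thus near the share of all genes. Their median log2 fold change was 0.00097, against -0.0060 for all genes. The libraries of the 2 groups did not overlap for 5 of the 10, against 52.2% of all genes. These were 2 higher and 3 lower, against 25.2% and 27%. Summed cholangiocyte markers were also lower in ConOA (242 to 272 CPM) than in Con (590 to 722). Of 4 tested, 1 was called higher and 1 lower, and their part was not tested.

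OA in BBR-treated cells (BBROA against BBR) called 6 of 10, with Herpud1, Hspa5, Manf and Xbp1 higher and Pdia4 and Dnajb9 lower. Of the 12416 genes tested 39.2% were called, 20.4% higher and 18.9% lower. The median of the 10 was 0.11, against -0.0061. Libraries did not overlap for 6 of 10, against 49.6% of all genes, with 4 higher and 2 lower against 25.3% and 24.3%. Summed cholangiocyte markers were lower in BBROA (199 to 240 CPM) than in BBR (391 to 421), with 0 called higher and 2 lower of 4 tested. Summed Kupffer cell markers were lower too (116 to 123 against 141 to 183), with 3 called higher and 3 lower. Of 5 endothelial markers tested, 2 were called higher and 3 lower. The part of these markers was not tested.

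BBR without OA (BBR against Con) called 4 of 10, Dnajb9 higher and Manf, Creld2 and Xbp1 lower, where 28.4% of 12555 genes were called, 13.6% higher and 14.8% lower. The median was -0.10, against -0.00085. Libraries did not overlap for 5 of 10, against 41.5%, with 1 higher and 4 lower against 19.2% and 22.3%. Without BBR replicate 3 only Dnajb9 and Xbp1 were called, 2 of 10. Summed Kupffer cell markers were also higher in BBR (141 to 183 CPM) than in Con (101 to 119). Of these 10 markers, 0 were called higher and 1 lower, and their part was not tested.

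BBR with OA (BBROA against ConOA) called Herpud1 alone of the 10, higher, where 5.16% of 12278 genes were called, 2.26% higher and 2.9% lower. The median was 0.025, against -0.00031, and libraries did not overlap for 3 of 10, against 23.8%, with 2 higher and 1 lower against 12% and 11.8%. The test of the difference between the drug effects called Xbp1 (higher with OA) and Dnajb9 (lower), 2 of 10, where 12.2% of 12742 genes were called, 6.78% higher and 5.38% lower. With a replicate block, more of the 10 and more of all genes were called there, as given at the end. At an unadjusted p under 0.05, 7 of the 10 passed that test, against 25.5% of all genes, and the differences of 7 of the 10 were above 0, against 52.3%. These shares are a description only, since the genes were chosen with earlier results known and some of them run together over the libraries.

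**Figure D3:**
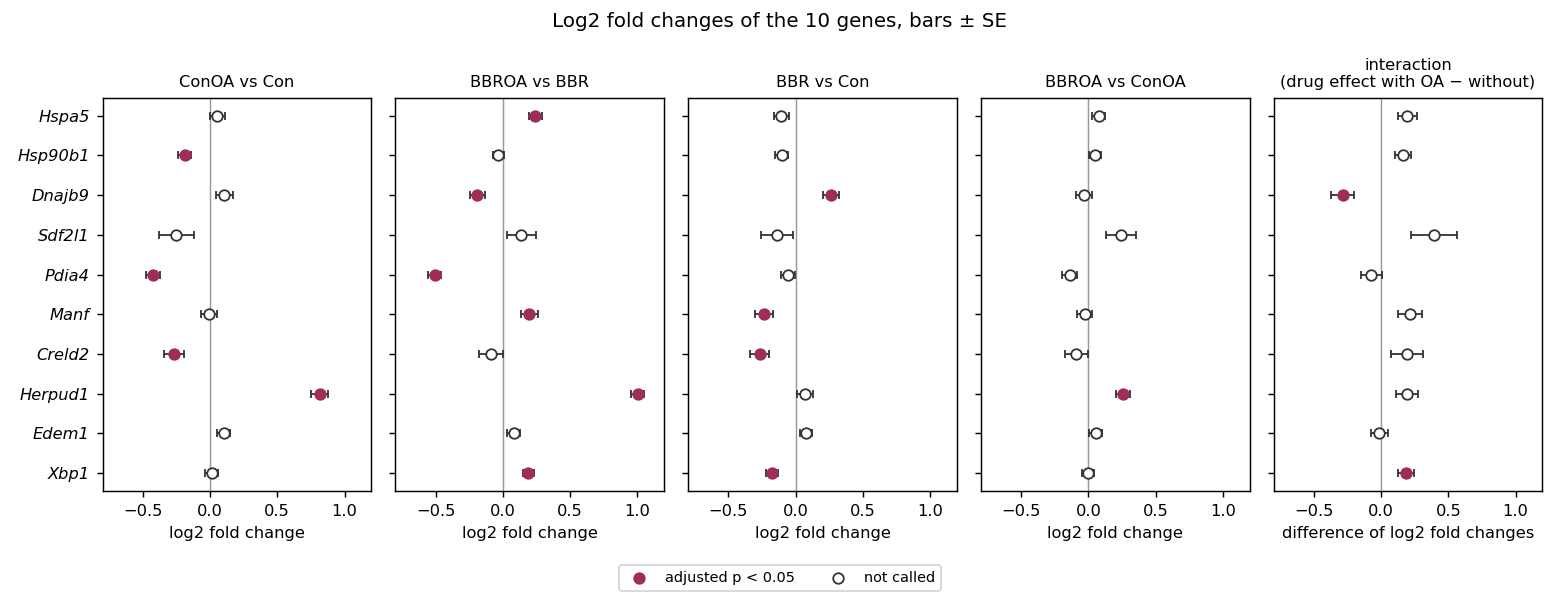
Log2 fold changes of the 10 genes in the 4 comparisons, and in the right panel the drug effect with OA minus that without, with bars of 1 SE and filled points for adjusted p under 0.05. Herpud1 and Pdia4 are called in opposite directions in both OA panels, and Herpud1 is the single filled point of BBROA against ConOA.

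The 2 OA comparisons share no library. Of the 10 genes, 2 were called in both, Herpud1 higher and Pdia4 lower each time, 2 in untreated cells only and 4 in BBR-treated cells only. Of the 12247 genes tested in both comparisons, 25.7% were called in both, 17.5% in untreated cells only and 13.8% in BBR-treated cells only. The sign matched for 7 of 10, against 72.6% of those genes, and the others were Dnajb9, Sdf2l1 and Manf. A call in one setting and not the other does not show a difference, which was called for Dnajb9 and Xbp1 in the fit without a replicate block. The 2 drug comparisons share no library either, and none of the 10 was called in both. Each drug comparison does share libraries with both OA comparisons, so that a group enters 2 of the 4.

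**Figure D4:**
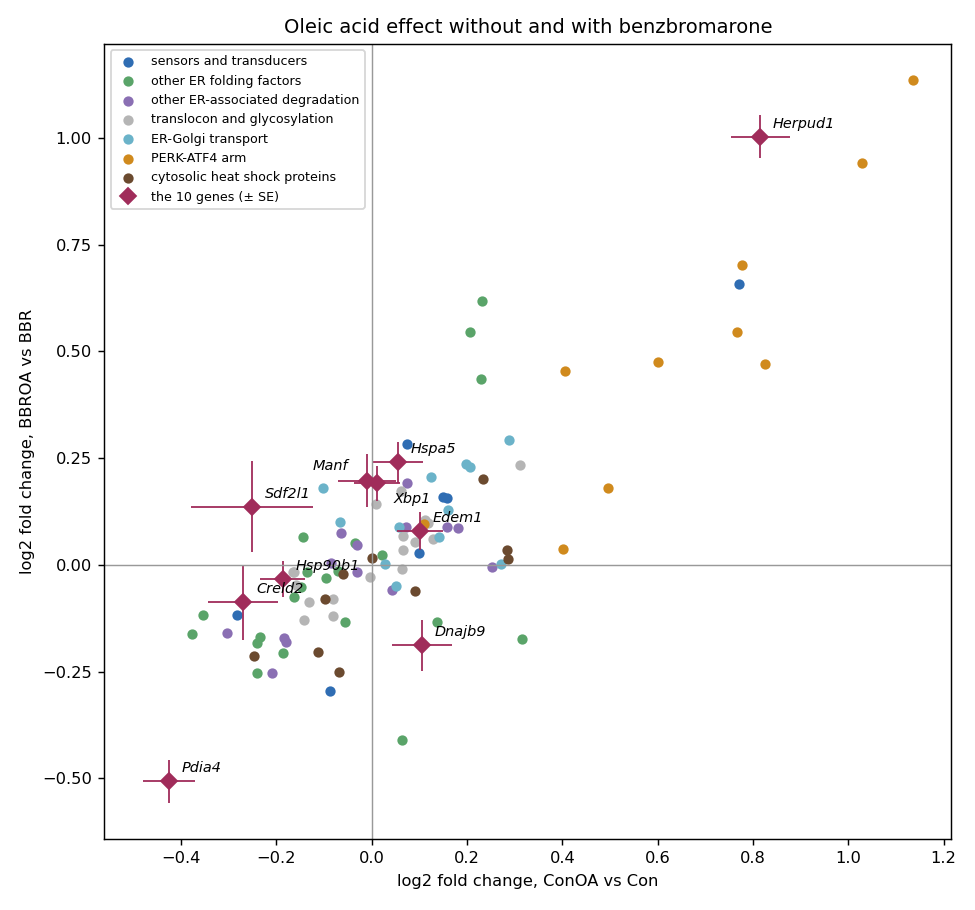
Log2 fold change with OA in untreated cells (x axis) against that in BBR-treated cells (y axis), for the 10 genes (diamonds, ± SE) and 92 other genes of the pathway lists (points, coloured by list). Herpud1 lies at the upper right among genes of the PERK-ATF4 arm, and Pdia4 at the lower left.

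The other genes of the pathway, 92 in 7 lists chosen with earlier results of these data known, were all tested. With OA in untreated cells 27 were called higher and 20 lower (51.1%, against 43% of all genes tested), and in BBR-treated cells 24 and 17 (44.6%, against 39.2%). BBR without OA called 17 higher and 4 lower (22.8%, against 28.4%), and BBR with OA 5 and 2 (7.61%, against 5.16%). The counts of each list stand against the shares of all genes called higher and lower, which were 21.3% and 21.7% with OA in untreated cells, 20.4% and 18.9% with OA in BBR-treated cells, 13.6% and 14.8% with BBR alone, and 2.26% and 2.9% with BBR on top of OA. PERK activity was not measured. The PERK-ATF4 arm list holds Atf4 itself and genes grouped with it. Of its 10 genes 9 were called higher with OA in untreated cells (median 0.68) and 7 in BBR-treated cells (median 0.47), none lower, and both counts were the same under RLE and upper quartile scaling. With OA in untreated and then in BBR-treated cells Chac1, which degrades glutathione, gave 1.14, adjusted p = 7.02e-08, and 1.14, adjusted p = 2.31e-09. Asns, asparagine synthetase, gave 1.03, adjusted p = 5.29e-10, and 0.94, adjusted p = 1.04e-11. BBR alone called 4 of these 10 higher and BBR with OA 1.

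Of 21 other ER folding factors 4 were called higher and 9 lower with OA in untreated cells (median -0.096), and 3 and 8 in BBR-treated cells (median -0.075). Under upper quartile scaling these were 2 and 11, and 3 and 9. Hyou1, the ER Hsp110 chaperone, was lower in both (-0.38, adjusted p = 3.52e-05, and -0.16, adjusted p = 0.0284). Pdia5, another disulfide isomerase, was higher with OA in both (0.21, adjusted p = 0.0314, and 0.54, adjusted p = 2.82e-06) and lower with BBR alone (-0.30, adjusted p = 0.0012). Pdia5 and Pdia4 therefore moved in opposite directions under OA. Fkbp11, a prolyl isomerase, gave 0.62, adjusted p = 6.2e-05 with OA in BBR-treated cells and -0.36, adjusted p = 0.0119 with BBR alone. Ero1lb, an oxidase of disulfide isomerases, was lower with OA in untreated cells (-0.35, adjusted p = 0.00346). Its relative Ero1l was higher there (0.32, adjusted p = 0.000113) and lower with OA in BBR-treated cells (-0.17, adjusted p = 0.00568). With BBR alone Ero1l was higher (0.60, adjusted p = 2.94e-08). BBR alone called 3 of the 21 higher and 2 lower, and BBR with OA 1 lower.

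Of 7 sensors and transducers, 2 were called higher and 1 lower with OA in untreated cells, and 4 and 1 in BBR-treated cells, against 1 and 1, and 2 and 2, under upper quartile scaling. Creb3l3, a liver membrane-bound transcription factor, was called higher in all 4 comparisons, at 0.77 and 0.66 with OA and 0.85 and 0.74 with BBR. Eif2ak3, which encodes PERK, was higher with BBR alone (0.39, adjusted p = 0.000498) and lower with OA on top of BBR (-0.30, adjusted p = 0.000758), the directions that Dnajb9 took. Mbtps1, a protease that cleaves ATF6, was lower with OA in untreated cells (-0.28, adjusted p = 0.00067).

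Of 14 other genes of ER-associated degradation, the process that Herpud1 serves, 3 were called higher and 4 lower with OA in untreated cells (1 and 4 under upper quartile scaling), and 1 and 4 in BBR-treated cells. Edem2, a relative of Edem1, was lower in both (-0.30, adjusted p = 0.000551, and -0.16, adjusted p = 0.0348), as was the lectin Erlec1 (-0.21, adjusted p = 0.0109, and -0.25, adjusted p = 0.00397). The ubiquitin-conjugating enzyme Ube2j1 was higher with OA in untreated cells (0.25, adjusted p = 0.000477). BBR alone called 2 higher.

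Of 12 ER-Golgi transport genes 4 were called higher with OA in untreated cells and 6 in BBR-treated cells, none lower (3 and 5, with 1 lower in untreated cells, under upper quartile scaling). Kdelr2, which returns escaped chaperones to the ER, gave 0.29, adjusted p = 0.000538, and 0.29, adjusted p = 8.95e-05. The cargo receptor Surf4 and the coat protein Sec23b were higher in both, at 0.21 and 0.20 in untreated cells. Of 18 translocon and glycosylation genes 2 were called higher and 5 lower in untreated cells, and 2 and 1 in BBR-treated cells, where upper quartile scaling gave 1 and 6, and 1 and 4. The translocon subunit Sec61g was higher in both (0.31, adjusted p = 0.000689, and 0.23, adjusted p = 0.043), Sec61a1 in BBR-treated cells (0.17, adjusted p = 0.00413), and the signal peptidase subunit Spcs2 was lower in untreated cells (-0.16, adjusted p = 0.0244). Of 10 cytosolic heat shock proteins, taken as chaperones outside the ER, 3 were called higher and 1 lower with OA in untreated cells, 1 and 3 in BBR-treated cells, and 4 and 0 with BBR alone. Upper quartile scaling gave 3 and 3, and 1 and 4, in the OA comparisons. Hspa4 (0.29, adjusted p = 0.000169) and Dnajb1 (0.28, adjusted p = 0.000294) were higher with OA in untreated cells, Hsph1 was lower in BBR-treated cells (-0.25, adjusted p = 0.000382), and Bag3 was lower in both.

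**Figure D5:**
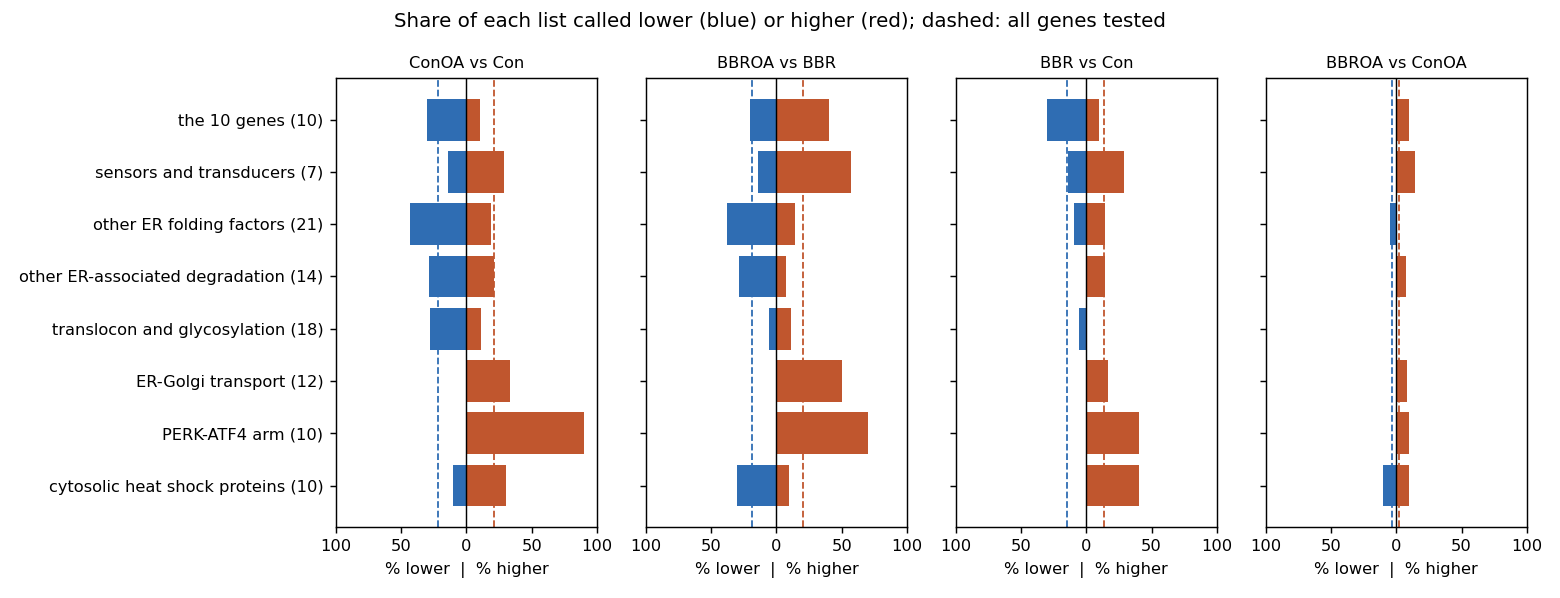
Percent of the tested genes of each list (number in brackets) called lower (left, blue) or higher (right, red) in the 4 comparisons, with dashed lines for all genes tested. The PERK-ATF4 arm reaches 9 of 10 higher in ConOA against Con, where the 10 genes have 1 higher and 3 lower.

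The 10 genes did not follow one profile over the 12 libraries. As a description over libraries that share the 4 groups, Pearson's r of log2 CPM over the 45 pairs ran from -0.94 (Pdia4 with Herpud1) to 0.90 (Manf with Xbp1), with a median of 0.089, 10 pairs above 0.5 and 10 below -0.5. Hspa5 ran with Xbp1 (0.78) and Herpud1 (0.76), and Hsp90b1 with Creld2 (0.78) and Pdia4 (0.75). Among 9623 genes with a mean of at least 5 CPM, those most like the mean profile of the 10 were Plekha7 (r = 0.87), Hnrnpa2b1 (0.85), Agpat2 (0.84), Gk (0.84), Gpat4 (0.84), Flt3l (0.83), Apmap (0.83), Mief2 (0.81), Dxo (0.80) and Vcl (0.79). Chosen after their values were seen, those most like Herpud1 alone were Pmaip1 and Sgk1 (0.99 each), and those most like Pdia4 were Myof and Plekha6 (0.98 each).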

How the data were processed

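RNA of 12 libraries of primary mouse hepatocytes was sequenced after selection of polyadenylated transcripts, per the labels. For each library the authors deposited an estimated count and an FPKM value for 22471 features. The submitters' processing notes name the build mm10, and the aligner, the quantification program and the use of strand are not given in the sources used here. The estimated counts were rounded here, since 2862 features had a fractional count in some library, and a gene that overlaps another could share reads. The deposited FPKM served only to compare levels between genes. Groups and replicate numbers came from the titles. Comparisons between 2 groups used their 6 libraries alone. They were fitted with edgeR 4.0.16 under R 4.3.3, with filterByExpr at a minimum count of 10, TMM scaling and the robust two-sided quasi-likelihood F test, and a gene was called at a Benjamini-Hochberg adjusted p under 0.05 over all genes tested. The difference between drug effects was fitted on all 12 libraries. SE came from the F statistic. CPM are TMM-scaled, and the limit that a count of 0 allows (3 counts) was 0.127 to 0.194 CPM, for counting error only. The alternatives were RLE and upper quartile scaling, no filter, DESeq2 1.42.0, a replicate block, all 12 libraries in one fit and each library left out. The 10 genes and the lists were chosen with earlier results of these data known. From each list the text names the 2 called genes with the largest absolute change in each OA comparison, and all 10 members; 1 gene that this rule names is not reported here. Gene positions came from GENCODE mouse release 21 (GRCm38), matched by identifier.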

Additional observations from a re-analysis of the deposited data

Results flagged for a closer look

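In 2 of the 10 genes the effect of BBR differed between cells with and without OA by a test of the difference itself, fitted without a replicate block. With that block more of the 10 were called, as given below. For Dnajb9, the BiP co-chaperone, the drug effect with OA minus that without was -0.29 on the log2 scale (SE 0.087, adjusted p = 0.0322). BBR alone raised it, and with OA present the drug difference was -0.033. For Xbp1 the difference was 0.19 (SE 0.061, adjusted p = 0.0448). BBR alone lowered it, and with OA present the group means were 170.2 and 170.5 CPM. Leaving out any one of 6 of the 12 libraries ended the Dnajb9 call, and any one of 11 ended the Xbp1 call. No cause was tested.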

How the results depend on the processing

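Each value was recomputed under 5 or 6 other settings and with each library left out. Of 214 recomputed values of called differences 183 kept their call and direction, 31 kept the direction and lost the call, and none reversed. The OA calls of Herpud1 and Pdia4, and those of Hsp90b1 and Creld2 in ConOA against Con, held in every alternative. Of 436 values of differences that were not called, 12 passed the threshold and 15 reversed sign. Xbp1 reversed to -0.035 in ConOA against Con under upper quartile scaling, and in BBROA against ConOA to -0.0028 without a filter and to -0.00027 with the replicate block. Other reversals came from leaving out 1 library. Those ranges were -0.062 to 0.039 for Manf and -0.017 to 0.034 for Xbp1 in ConOA against Con, -0.18 to 0.0041 for Creld2 in BBROA against BBR, and -0.051 to 0.016 for Edem1 in the difference between drug effects. In BBROA against ConOA they were -0.056 to 0.014 for Manf, -0.017 to 0.020 for Xbp1 and -0.067 to 0.011 for Dnajb9. The difference between drug effects called 1 of the 10 genes, Dnajb9, under RLE scaling, upper quartile scaling, no filter and DESeq2. Leaving out 1 library gave 0 to 2 of the 10 there. It gave 2 to 4 in BBR against Con and 0 to 1 in BBROA against ConOA, where 238 to 801 genes in all were called. DESeq2 called 4587, 3854, 2746 and 477 genes in the 4 comparisons. The cause was not tested.

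Same-numbered libraries correlated at 0.0534 to 0.183 in their deviations from the group means. Some pairs of every comparison were below 0.1, a cutoff set here, and the main fits did not pair the samples. A low correlation does not show that pairing is absent. In each comparison all 6 libraries correlated best with their own number. This is a hint, from the data and not the design, of a shared structure that the main fits leave out. Whether same-numbered libraries share a mouse or a batch is not given in the sources used here. With the replicate block, 1384 genes and 2 of the 10 (Herpud1 and Pdia4) were called in BBROA against ConOA, and 2372 genes and 6 of the 10 in the difference between drug effects, where Hspa5 (0.19, adjusted p = 0.00274), Hsp90b1 (0.16, adjusted p = 0.0145), Manf (0.22, adjusted p = 0.0429) and Herpud1 (0.19, adjusted p = 0.0455) joined Dnajb9 and Xbp1. The block called 6, 6 and 5 of the 10 in ConOA against Con, BBROA against BBR and BBR against Con, which added Edem1 (0.10, adjusted p = 0.0209) and Sdf2l1 (-0.25, adjusted p = 0.0281) in the first and Hspa5 (-0.11, adjusted p = 0.0476) in the last. No call was lost with the block.

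The lowest count of any of the 10 genes was 156, and with 3 libraries a group the SE of their log2 fold changes in the 4 comparisons ran from 0.041 to 0.128.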
